A study of Mus musculus with 67 samples.

Results

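Regulatory T cells (Tregs) sorted from the rest brain, the brain without the hypothalamus, were compared between mice on the Balb/c and the C57Bl/6J background. The members were chosen by label from the second RNA-seq experiment of the study, as its libraries with tissue rest brain and cell type Treg. They were 14 of the 59 libraries of that experiment and of 67 libraries in all. The study asked how a high-calorie diet acts on T cells of the brain and hypothalamus, and its second experiment sequenced Tregs and activated conventional T cells (Tconv) from both tissues on 2 diets.

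The Balb/c group held 6 libraries, 2 from mice on standard diet (SD) and 4 from mice on a high-fat high-sugar (HFHS) diet. The C57Bl/6J group held 8 libraries, 4 on SD and 4 on HFHS diet. Both backgrounds carried a Foxp3GFP reporter, in the strains C.Cg-Foxp3tm2Tch/J and B6.Cg-Foxp3tm2Tch/J, and diets were started in mice of 6 weeks of age. The Balb/c groups were made of females and the C57Bl/6J groups of males, so strain and sex cannot be told apart and every difference below is called strain-associated. The methods give pools of 5 mice per sample for the activated Tconv of the same experiment, and the gate and pool size of the Tregs are not given in the sources used here. The number ranges in some pool names do not span 5 mice. P-values therefore rest on the spread between pools, not between single mice.

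Tregs are CD4 T cells that express the transcription factor Foxp3 and restrain other immune cells. Small numbers of them reside in the brain, where they can act on glia and on neighbouring T cells. Inbred strains of mice differ in their major histocompatibility complex (MHC) haplotype and in several families of interferon-inducible genes that lie in clusters of near-identical copies.

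The libraries held 8938480 to 24985600 estimated counts, with a median of 17377200. The number of genes with more than 10 counts ranged from 7895 to 9482 in the Balb/c libraries and from 5433 to 9610 in the C57Bl/6J libraries. C57Bl/6J SD libraries 2, 3 and 4 stood apart, with 6214, 5433 and 6807 such genes, although their total counts were 20263500, 16709600 and 24985600. The deepest library of the 14 was thus among the 3 with the fewest genes. Of the 8904 autosomal genes tested, 2974 had more than 10 counts in all 14 libraries and 4940 were at 0 in at least 1. The biological coefficient of variation, the typical spread between pools of 1 group relative to the mean, was 1.41.

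The sorted identity was checked against marker genes, in counts scaled to the size of each library (CPM). *Foxp3* ranged from 299.6 to 800.02 CPM with a median of 409 in Balb/c and from 258 to 496 CPM with a median of 399 in C57Bl/6J. *Cd3e*, a chain of the T cell receptor complex, lay between 1540 and 3209 CPM in the 14 libraries, and *Cd8a* did not exceed 9.94 CPM. The female transcript *Xist* was at 11.04 to 318 CPM in Balb/c and at most 1.97 CPM in C57Bl/6J, while the Y-linked *Ddx3y* was at 101 to 449 CPM in C57Bl/6J and at most 0.121 CPM in Balb/c. Every library thus matched the sex stated for its strain.

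Markers of other cells were present as well, some at summed CPM as high as that of *Foxp3* alone. Of 8 oligodendrocyte markers 3 passed the filter on low counts and 2, on autosomes, were tested, none was at 0 in every library, and the most abundant was *Cnp* with a mean of 308 CPM. Their summed level was 548, 441, 553 and 611 CPM in Balb/c HFHS libraries 1 to 4 and 567 and 1307 CPM in Balb/c SD libraries 1 and 2. In C57Bl/6J it was 454, 387, 315 and 429 CPM in HFHS libraries 1 to 4 and 183, 421, 3.14 and 185 CPM in SD libraries 1 to 4. The sum was thus higher in most Balb/c libraries, and its part in the differences below was not tested. Macrophage or monocyte markers summed to 39.1 to 552 CPM in Balb/c and 0 to 275 CPM in C57Bl/6J, led by *Ccr2*, which Tregs also express. Microglial markers summed to 115 to 306 and 59.4 to 537 CPM, and neuronal markers reached 85.9 and 104 CPM in Balb/c HFHS library 4 and Balb/c SD library 2 and at most 5.64 CPM in the other 12. Neutrophil markers stayed at or under 3.58 CPM. Astrocyte markers summed to at most 75.1 CPM, endothelial markers to between 24.7 and 407 CPM and B cell markers to at most 138 CPM, and the sum of CD8 T or NK cell markers, led by *Cd8b1* with a mean of 23.9 CPM, reached 61.8 CPM in Balb/c HFHS library 1 and 84.9 CPM in C57Bl/6J HFHS library 2. The markers *Gja1* and *Aldh1l1* of astrocytes, *Cdh5* and *Kdr* of endothelium, *Pax5* of B cells and *Pf4* of macrophages were at 0 in every library. Among the 24 markers of all cell types tested, edgeR called 0 by strain, with 5 at an unadjusted p under 0.05 and 1, *Cd3d*, called by DESeq2. By comparison, 0.348% of all 8904 genes tested were called by edgeR, 306 had an unadjusted p under 0.05 and DESeq2 called 105. In these bulk libraries fewer cells of a type and less RNA per cell cannot be told apart.

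The main comparison asked which genes differed between rest brain Tregs of the strains with diet as a term. Strain-associated differences were few and included genes of several immune families, among them MHC class I genes, the surface protein gene *Ly6e*, the antiviral genes *Apobec3*, *Trim12a* and *Trim30d*, and the DNA sensor gene *Ifi204*. *Ly6e* was lower in Balb/c by a fitted 11.3-fold, at a median of 614 against 6092 CPM. *Coro2a*, *Trim12a* and *Gm4956* had 0 counts in all 6 Balb/c libraries and were present in all 8 C57Bl/6J libraries. *Pim1*, *Ctse* and *Cap1*, a kinase, a protease and an actin regulator, were higher in every Balb/c library than in any C57Bl/6J library.

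With edgeR's quasi-likelihood test and a Benjamini-Hochberg adjusted p under 0.05, 31 of 8904 genes were called, 0.348% of those tested. Of these, 15 were higher (0.168%) and 16 lower (0.18%) in Balb/c, and 306 genes had an unadjusted p under 0.05. Over all genes tested 4560 had higher and 4344 lower values in Balb/c, with a median log2 fold change of 0.02. The strain groups did not overlap in CPM for 28 of the 31 genes, against 77 of all genes tested (0.865%). The count depended on the model. DESeq2 called 105 genes and limma-voom 110, each including 30 of the 31, and a term for the number of genes detected left 19 (6 higher, 13 lower), of which 17 were shared. The 14 calls lost with that term were those of *Ifi204*, *Gm11127*, *Pim1*, *Gm15772*, *2410017I17Rik*, *Ctse*, *Gm1966*, *Apol7e*, *Hopx*, *H2-Bl*, *Odc1*, *Cap1*, *Gm15987* and *Gm8979*. All 14 kept their direction. With the term the log2 fold change was 6.30 against 6.503 without it for *Ifi204*, 4.78 against 4.92 for *Pim1* and -4.12 against -4.95 for *Gm1966*. With the HFHS libraries alone 36 genes were called, and the 8 calls lost were those of *Clca3a1*, *Gm15772*, *2410017I17Rik*, *Gm1966*, *H2-Bl*, *Odc1*, *Gm15987* and *Gm8979*. With the SD libraries alone, 2 against 4, 1 gene was called, *Ly6e*. Without C57Bl/6J SD libraries 2, 3 and 4, left out after seeing the data, 45 genes were called, of which 27 were among the 31.

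**Figure D1:**
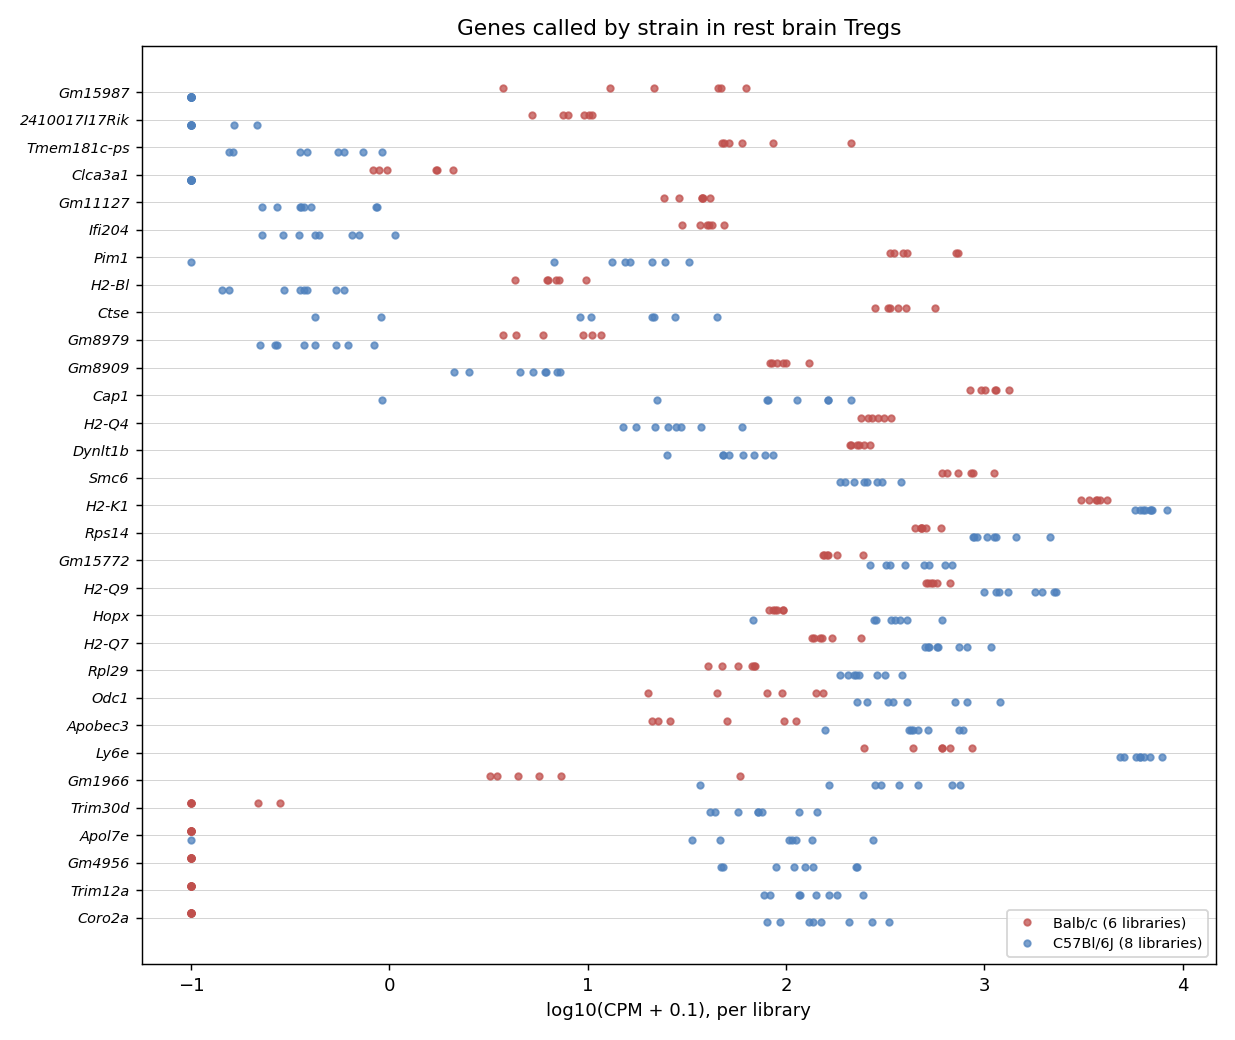
CPM on a log10 scale, after adding 0.1, of the 31 genes called by strain, with 1 point for each of the 6 Balb/c (red) and 8 C57Bl/6J (blue) libraries. The groups overlap for *Gm1966*, *Apol7e* and *Hopx*, and points at the left edge are libraries at 0.

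*Ly6e* encodes an interferon-inducible surface protein with a lipid anchor and lies at chr15:74955025-74959904 (GRCm38, as are all positions here). Its level ranged from 247 to 869 CPM with a median of 614 in Balb/c, and from 4827 to 7902 CPM with a median of 6092 in C57Bl/6J. The highest Balb/c library was far under the lowest C57Bl/6J library. The log2 fold change of Balb/c against C57Bl/6J was -3.50 with a standard error (SE) of 0.24 and an edgeR adjusted p of 1.7e-06. It was the only gene of the 31 called in every alternative fit and in every fit that left out 1 library. Of 19 genes listed for the Ly6 family 4 were tested, all with lower values in Balb/c and a median log2 fold change of -3.89, against 0.02 over all genes tested. *Ly6e* alone was called and alone had groups that did not overlap, against 0.348% of all genes called and 0.865% without overlap. *Ly6a*, the gene of Sca-1, had a median of 612 against 1034 CPM and overlapping groups, with an edgeR adjusted p of 0.9997. Since Ly6 genes are close paralogs, their counts are uncertain.

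The MHC class I genes, whose products present peptides to CD8 T cells or engage other receptors, differed in both directions. Of 25 genes tested on a list of 28, 1 was called higher and 3 lower, 7 had groups that did not overlap, and the median log2 fold change was 0.11 against 0.02 over all genes. Over all genes tested 0.348% were called and 0.865% had groups that did not overlap. *H2-Q4*, at chr17:35379617-35384674, ranged from 238 to 338 CPM with a median of 282 in Balb/c and from 14.99 to 60.2 CPM with a median of 26.7 in C57Bl/6J. Every Balb/c library was above every C57Bl/6J library, with a log2 fold change of 3.32 (SE 0.35, edgeR adjusted p 1.5e-04). *H2-K1*, the classical class I heavy chain gene at chr17:33996012-34000619, ranged from 3087 to 4161 CPM (median 3682) and from 5752 to 8315 CPM (median 6672). The groups were apart although the difference was small, with a log2 fold change of -0.88 (SE 0.10, edgeR adjusted p 2.0e-04).

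*H2-Q7* was at a median of 150.1 CPM in Balb/c, between 135 and 239, and of 583 CPM in C57Bl/6J, between 502 and 1078. Its log2 fold change was -1.97 (SE 0.23, edgeR adjusted p 3.3e-04). *H2-Q9* was at a median of 545 against 1559 CPM without overlap, with a log2 fold change of -1.45 (SE 0.18, edgeR adjusted p 7.1e-04). *H2-Q1* and *H2-Q10* lay just outside the threshold, at medians of 52.4 against 2.62 and 94.6 against 5.57 CPM without overlap and edgeR adjusted p of 0.0599 and 0.0906. Other partners of the pathway overlapped between strains. *B2m*, the shared light chain, had medians of 13533 CPM in Balb/c and 15198 CPM in C57Bl/6J, and *Tap1*, a peptide transporter subunit, had medians of 365 and 307 CPM. DESeq2 called 7 genes of the list, against 105 of all 8904 genes tested. Class I genes are near-identical paralogs and were quantified on transcripts of the mm10 genome, which derives from C57BL/6J. The part of sequence differences between the strains in these counts was not tested, so the values of single H2 genes are uncertain.

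Chromosome 17, which carries the MHC, held 11 of the 31 called genes among 505 tested there (2.18%), against 0.348% over all genes tested. The longest run, with each called gene within 500 kb of the next, was made of *Gm11127*, *H2-Bl*, *Gm8909* and *2410017I17Rik* at chr17:36055816-36168602, and all 4 were higher in Balb/c. *Gm8909* ranged from 83.3 to 131 CPM with a median of 93.3 in Balb/c and from 2.01 to 7.20 CPM with a median of 5.63 in C57Bl/6J. Its groups were far apart, with a log2 fold change of 4.22 (SE 0.61, edgeR adjusted p 0.00276). *Gm11127* was at 24.3 to 41.2 CPM (median 37.6) against at most 0.766 CPM (median 0.265), with a log2 fold change of 6.71 (SE 1.09, edgeR adjusted p 0.0081), and with the term for genes detected the adjusted p of *Gm11127* was 0.0693, within a range of 5.7e-26 to 1 over the alternatives. *Gm8909* and the noncoding RNA *2410017I17Rik* overlap in position, and how far reads of the pair were shared between them was not tested. *2410017I17Rik* was low, at a median of 8.70 CPM in Balb/c and at 0 in 6 of 8 C57Bl/6J libraries, with an edgeR adjusted p of 0.0111. The *2410017I17Rik* call was lost with a filter on total counts (0.126), with HFHS diet alone (0.197), with SD alone (1) and with the term for genes detected (0.0727), and the adjusted p ran from 6.2e-06 to 1 over the alternatives. *H2-Bl*, a transcribed pseudogene, had medians of 6.55 and 0.264 CPM and an edgeR adjusted p of 0.0292. That call was lost when any 1 library other than Balb/c HFHS 3 and C57Bl/6J SD 1, 3 and 4 was left out, with an adjusted p of up to 0.103, and its adjusted p ran from 1.4e-05 to 1 over the alternatives.

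Outside that run, chromosome 17 held the called neighbours *H2-Q4* and *H2-Q7* within chr17:35379617-35443773, and another pair at chr17:6429530-6620925. *H2-Q9* was not placed, because no GENCODE entry was matched to it to check its position in the gene table. *Dynlt1b*, a dynein light chain gene, had a median of 231 CPM in Balb/c, between 210.1 and 266, and of 55.9 CPM in C57Bl/6J, between 24.9 and 85.5. The groups did not overlap, and the log2 fold change was 2.04 (SE 0.31, edgeR adjusted p 0.00484). The pseudogene *Tmem181c-ps* was at 47.7 to 213 CPM with a median of 55.8 in Balb/c and at most 0.815 CPM in C57Bl/6J, with a log2 fold change of 7.72 (SE 0.96, edgeR adjusted p 6.5e-04). *Pim1*, a kinase gene induced by cytokines, lay at chr17:29490785-29496111. It ranged from 333 to 734 CPM with a median of 398 in Balb/c and from 0 to 32.4 CPM with a median of 15.8 in C57Bl/6J. All Balb/c libraries were high, with a log2 fold change of 4.92 (SE 0.81, edgeR adjusted p 0.0085), and the *Pim1* call was lost with the term for genes detected.

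**Figure D2:**
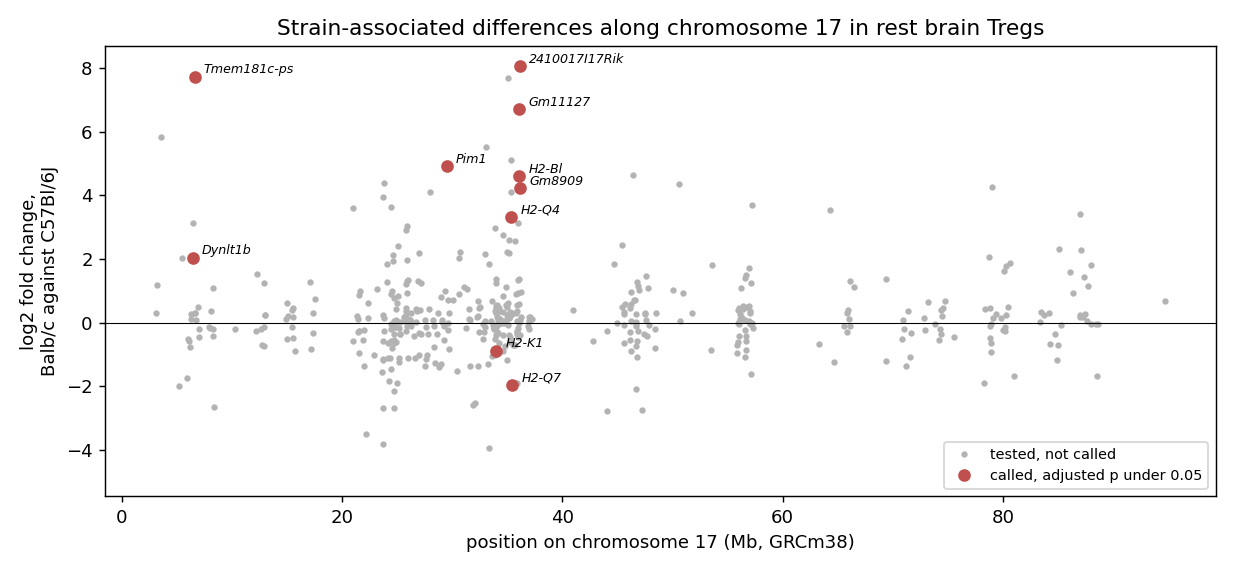
Log2 fold change of Balb/c against C57Bl/6J in rest brain Tregs for 491 tested genes of chromosome 17 whose positions overlap in RefSeq and GENCODE, against position in Mb (GRCm38). The 10 called genes drawn are in red and named, and the called *H2-Q9* is not drawn, since no GENCODE entry was matched to it.

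Interferon-stimulated genes, which many cells switch on in response to viruses, were tested for 39 of 43 list members. None was called higher and 2 were called lower, *Apobec3* and *Trim30d*, with 5 at an unadjusted p under 0.05 and 4 called by DESeq2. Over all 8904 genes edgeR called 0.348%, 306 had an unadjusted p under 0.05 and DESeq2 called 105. Values were lower in Balb/c for 29 of the 39 genes, and the median log2 fold change was -0.45 against 0.02 over all genes. *Apobec3*, a cytidine deaminase gene that restricts retroviruses, ranged from 20.96 to 113 CPM with a median of 38.2 in Balb/c and from 158 to 784 CPM with a median of 449.9 in C57Bl/6J. The groups were separate, with a log2 fold change of -3.45 (SE 0.41, edgeR adjusted p 4.3e-04). *Bst2*, the gene of tetherin, lay outside the threshold, at medians of 62.2 and 164 CPM without overlap and an edgeR adjusted p of 0.127.

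*Trim12a* and *Trim30d* belong to a cluster of tripartite motif genes and lay within chr7:104299893-104507853. *Trim12a* had 0 counts in all 6 Balb/c libraries and 77.2 to 244 CPM with a median of 129 in C57Bl/6J. Its mean was at least 643-fold lower in Balb/c, taking a floor of 3 counts per library, with an edgeR adjusted p of 4.2e-05. *Trim30d* had 0 counts in 4 Balb/c libraries and at most 0.182 CPM in the others, against 41.3 to 144 CPM with a median of 72.6 in C57Bl/6J. Its fitted log2 fold change was -10.50 (SE 1.37, edgeR adjusted p 9.7e-04). The neighbours *Trim12c*, *Trim30a*, *Trim34a* and *Trim34b* were tested and not called, with log2 fold changes of -1.29, -0.56, -2.34 and 5.20 and an edgeR adjusted p of 0.9997 each. These genes are close copies of each other, so the split of reads among them is uncertain.

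Promoters are shown for *Apobec3*, *Trim12a*, *Trim30d* and *Apol7e*, 4 genes lower in Balb/c that were picked after the calls and the motif matches were known. Of the 31 called genes 19 matched the promoter table of RefSeq (GRCm38), which holds 32851 windows of 300 bases. Each runs from 250 before to 50 after a listed start, and a gene can have more than 1. A listed start need not be the outer end of the gene, as for *Apol7e*, whose gene spans chr15:77695706-77719288. After the calls were known, both strands were searched for GAAANNGAA, the core of the interferon-stimulated response element, and TTCNNNGAA, the core of the gamma-activated sequence. GAAANNGAA was in 8 of the 19 genes (42.1%), against 8.56% of all windows and 9.76% of all 27025 genes in the table. The 8 genes went both ways, with *Clca3a1* and *Gm11127* higher in Balb/c and *Coro2a*, *Gm1966* and the 4 shown lower. TTCNNNGAA was in 2 of the 19 (10.5%), against 8.30% of windows and 9.55% of genes. These matches are a description and no evidence of binding, and the sequences are those of the reference genome. Capitals mark the letters of GAAANNGAA matches, here on the opposite strand, and overlapping matches run together in *Apol7e*. The windows are chr15:79892158-79892457 (plus strand) for *Apobec3*, chr15:77698639-77698938 (plus) for *Apol7e*, chr7:104315446-104315745 (minus) for *Trim12a* and chr7:104507800-104508099 (minus) for *Trim30d*. A second window of *Apobec3*, at chr15:79894773-79895072, held no match.
Apobec3: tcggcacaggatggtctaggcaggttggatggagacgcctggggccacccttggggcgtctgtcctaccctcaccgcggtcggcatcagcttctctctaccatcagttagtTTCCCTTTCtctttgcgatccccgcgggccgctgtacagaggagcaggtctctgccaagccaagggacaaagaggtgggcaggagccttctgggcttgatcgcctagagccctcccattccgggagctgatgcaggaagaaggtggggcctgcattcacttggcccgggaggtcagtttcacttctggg
Apol7e: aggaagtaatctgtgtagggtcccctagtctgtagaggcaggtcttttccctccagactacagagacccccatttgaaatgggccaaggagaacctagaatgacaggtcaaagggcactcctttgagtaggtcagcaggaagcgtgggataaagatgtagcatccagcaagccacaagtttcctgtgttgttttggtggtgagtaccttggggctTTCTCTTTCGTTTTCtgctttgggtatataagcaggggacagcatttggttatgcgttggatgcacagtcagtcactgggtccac
Trim12a: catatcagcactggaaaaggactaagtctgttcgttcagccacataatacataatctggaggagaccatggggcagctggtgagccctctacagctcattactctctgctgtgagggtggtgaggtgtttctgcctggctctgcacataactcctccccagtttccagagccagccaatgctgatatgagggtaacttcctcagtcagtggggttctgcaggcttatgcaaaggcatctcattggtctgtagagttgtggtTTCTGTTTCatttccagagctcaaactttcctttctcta
Trim30d: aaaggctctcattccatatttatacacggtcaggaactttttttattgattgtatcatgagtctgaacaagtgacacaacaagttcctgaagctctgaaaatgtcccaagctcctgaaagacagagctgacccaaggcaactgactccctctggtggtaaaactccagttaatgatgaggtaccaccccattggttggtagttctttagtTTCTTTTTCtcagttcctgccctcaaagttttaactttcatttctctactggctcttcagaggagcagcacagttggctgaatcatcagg

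The Ifi200 family encodes DNA sensors in a cluster on chromosome 1. Of 9 members tested on a list of 16, 1 was called higher and 0 lower in Balb/c, with 4 at an unadjusted p under 0.05 and 2 called by DESeq2, and the median log2 fold change was -0.46. Over all 8904 genes tested edgeR called 0.348%, 306 had an unadjusted p under 0.05, DESeq2 called 105 and the median was 0.02. *Ifi204*, at chr1:173747293-173767069, ranged from 29.7 to 48.4 CPM with a median of 40.3 in Balb/c and from 0.128 to 0.971 CPM with a median of 0.331 in C57Bl/6J. It was near absent in C57Bl/6J, with a log2 fold change of 6.503 (SE 1.03, edgeR adjusted p 0.00642), and the *Ifi204* call was lost with the term for genes detected. *Ifi213* had medians of 5.99 and 84.5 CPM with overlapping groups and was not called (edgeR adjusted p 0.303). Of 18 interferon-inducible GTPase genes, all tested, 14 had higher values in Balb/c with a median log2 fold change of 0.56, and edgeR called 0, with 4 at an unadjusted p under 0.05 and 1 called by DESeq2. *Gbp2b* was at 43.8 to 348 CPM in Balb/c and at 0 to 36.7 CPM in C57Bl/6J (edgeR adjusted p 0.703). *Gbp4* was at a median of 616 against 368 CPM, also without overlap (edgeR adjusted p 0.180). Paralogs of both families share sequence and their counts are uncertain.

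A set of genes had counts in 1 strain alone. *Coro2a*, an actin-binding coronin gene at chr4:46536937-46601929, had 0 counts in the 6 Balb/c libraries and 79.8 to 329 CPM with a median of 144 in C57Bl/6J. Its mean was at least 801-fold lower in Balb/c against the floor of 3 counts per library (edgeR adjusted p 4.2e-05). The pseudogene *Gm4956* had 0 counts in Balb/c and 47.1 to 229 CPM with a median of 117 in C57Bl/6J. Its mean was at least 577-fold lower in Balb/c (edgeR adjusted p 1.4e-04). *Apol7e*, of the apolipoprotein L family, lay outside the rule for named genes and was named after its values were seen. It had 0 counts in Balb/c and up to 274 CPM with a median of 106 in C57Bl/6J, where 1 library, SD 3, was at 0 as well. Its mean was at least 464-fold lower in Balb/c, with that C57Bl/6J library at 0 included in the mean (edgeR adjusted p 0.0288). That call was lost when any 1 library other than Balb/c HFHS 3 and C57Bl/6J SD 3 and 4 was left out, with an adjusted p of up to 0.0738, and its adjusted p ran from 1.1e-15 to 1 over the alternatives. In the other direction, *Gm15987* and *Clca3a1* had 0 counts in the 8 C57Bl/6J libraries. *Gm15987*, a noncoding RNA gene, was at 3.64 to 62.8 CPM with a median of 33.5 in Balb/c. Its mean was at least 181-fold higher there (edgeR adjusted p 0.0417). Its call was lost when any 1 library other than C57Bl/6J SD 2, 3 and 4 was left out, with an adjusted p of up to 0.126, within a range of 9.0e-13 to 1 over the alternatives. *Clca3a1* was low, at 0.728 to 2.004 CPM in Balb/c, with a mean at least 7.14-fold higher there (edgeR adjusted p 0.00219). The *Clca3a1* call was lost with DESeq2 and with a filter on total counts.

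Several genes of general cell functions were higher in Balb/c. *Smc6*, of the SMC5/6 complex in DNA repair, ranged from 612 to 1125 CPM with a median of 796 in Balb/c and from 186 to 379 CPM with a median of 253 in C57Bl/6J. The groups were separate, with a log2 fold change of 1.64 (SE 0.20, edgeR adjusted p 4.6e-04). *Ctse*, the gene of the aspartic protease cathepsin E, ranged from 282 to 561 CPM (median 350.3) and from 0.320 to 44.7 CPM (median 15.6). Its log2 fold change was 4.50 (SE 0.79, edgeR adjusted p 0.0156), and without Balb/c SD library 2 the adjusted p was 0.0505, within a range of 1.2e-07 to 1 over the alternatives. *Cap1*, which drives actin turnover, ranged from 844 to 1334 CPM (median 1069) and from 0.821 to 214 CPM (median 97.2), with C57Bl/6J SD library 2 lowest. Its log2 fold change was 3.38 (SE 0.67, edgeR adjusted p 0.0399). The *Cap1* call was lost when any 1 library other than C57Bl/6J SD 2 and 4 was left out, with an adjusted p of up to 0.113, within a range of 9.7e-06 to 1 over the alternatives.

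Lower in Balb/c were *Odc1*, *Hopx* and 3 genes tied to ribosomal proteins or their copies. *Odc1*, the gene of ornithine decarboxylase in polyamine synthesis, ranged from 20.1 to 153 CPM (median 87.7) in Balb/c and from 227 to 1197 CPM (median 377) in C57Bl/6J. Its log2 fold change was -2.50 (SE 0.48, edgeR adjusted p 0.0295). The *Odc1* call was lost when any 1 library other than Balb/c HFHS 3 and 4, C57Bl/6J HFHS 3 and C57Bl/6J SD 1, 3 and 4 was left out, with an adjusted p of up to 0.104, within a range of 1.2e-05 to 1. *Hopx*, of the homeodomain-only protein, was the called gene of the Th1 and cytotoxic list, at 82.2 to 96.6 CPM (median 88.8) against 68.2 to 612 CPM (median 347). The groups overlapped through C57Bl/6J SD library 3, with a log2 fold change of -1.92 (SE 0.36, edgeR adjusted p 0.0292). The *Hopx* call was lost when any 1 library other than C57Bl/6J SD 2, 3 and 4 was left out, with an adjusted p of up to 0.103, within a range of 3.2e-05 to 1.

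*Rpl29*, of the large ribosomal subunit, had a median of 62.04 CPM in Balb/c and 229 CPM in C57Bl/6J without overlap, with a log2 fold change of -2.11 (SE 0.28, edgeR adjusted p 0.0012). *Rps14*, of the small subunit, had medians of 483 and 1077 CPM without overlap and a log2 fold change of -1.15 (SE 0.18, edgeR adjusted p 0.0052). The pseudogene *Gm15772* had medians of 162 and 447 CPM and a log2 fold change of -1.25 (SE 0.21, edgeR adjusted p 0.0107). Without Balb/c SD library 1 its adjusted p was 0.0537, within a range of 1.5e-06 to 1 over the alternatives. Ribosomal protein genes have many processed copies, and these values are uncertain.

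The last called genes, *Gm1966* and *Gm8979*, also lay outside the rule for named genes and were named after their values were seen. *Gm1966* ranged from 3.13 to 58.9 CPM (median 4.99) in Balb/c and from 36.96 to 750.04 CPM (median 336) in C57Bl/6J, and the groups overlapped through Balb/c HFHS library 4 and C57Bl/6J SD library 1. Its log2 fold change was -4.95 (SE 0.93, edgeR adjusted p 0.0288). The *Gm1966* call was lost without Balb/c HFHS 1, 2 or 3, Balb/c SD 1 or 2, or C57Bl/6J HFHS 1 or 2, with an adjusted p of up to 0.110, within a range of 2.6e-09 to 1. *Gm8979*, a low pseudogene at medians of 7.61 and 0.296 CPM, had an edgeR adjusted p of 0.0417 and lost its call whichever library was left out, with an adjusted p of up to 0.117, within a range of 2.1e-05 to 1.

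Treg identity genes did not pass the test. All 20 on the list were tested, 7 with higher and 13 with lower values in Balb/c, with a median log2 fold change of -0.25 against 0.02 over all genes. EdgeR called 0, with 4 at an unadjusted p under 0.05, and DESeq2 called 0. For comparison, edgeR called 0.348% of all 8904 genes tested, 306 had an unadjusted p under 0.05 and DESeq2 called 105. *Il2ra*, the high-affinity interleukin-2 receptor chain, had medians of 486 and 348 CPM, and the inhibitory receptor gene *Ctla4* had medians of 775 and 1117 CPM, with edgeR adjusted p of 0.9997 and 0.763. *Socs2*, an inhibitor of cytokine signalling, was at 133 to 333 against 0 to 104 CPM without overlap (edgeR adjusted p 0.9997). Of 28 tissue effector Treg genes tested on a list of 29, edgeR called 0, with 3 at an unadjusted p under 0.05 and 1 called by DESeq2, *Areg*, and the median log2 fold change was 0.06. *Areg*, the gene of the repair factor amphiregulin, was at 0 to 26.9 CPM in Balb/c and 0 to 199 CPM in C57Bl/6J (edgeR adjusted p 0.822).

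Other T cell programmes gave few calls. On the Th1 and cytotoxic list 14 of 21 genes were tested, 7 higher and 7 lower, with a median log2 fold change of 0.03, and 0 were called higher and 1 lower, against 0.348% called over all genes, with 2 at an unadjusted p under 0.05 and 2 called by DESeq2. The chemokine gene *Ccl5* was at medians of 49.2 and 207 CPM (edgeR adjusted p 0.303). Among all 8904 genes tested 306 had an unadjusted p under 0.05 and DESeq2 called 105. EdgeR called 0 on each of 6 further lists. These were Th2 (8 tested, median log2 fold change 0.38, 0 at an unadjusted p under 0.05, 0 by DESeq2), naive and egress (15 tested, 0.15, 1 and 0) and residency (11 tested, -0.41, 1 and 1). They were also checkpoint receptors (10 tested, -0.60, 2 and 0), the SLAM family (6 tested, 0.33, 1 and 0) and MHC class II (6 tested, 0.12, 1 and 0), in the same order of values. *Rgs2*, the residency gene called by DESeq2, was at medians of 543 and 1185 CPM (edgeR adjusted p 0.184). *Slamf6* was at medians of 358 and 201 CPM (edgeR adjusted p 0.303). No gene of the TIM family passed the filter on low counts, and of 29 genes of the Klr natural killer complex 4 were tested, 2 higher and 2 lower, with 0 called by edgeR, 0 at an unadjusted p under 0.05 and 0 by DESeq2.

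Among immediate early genes, which T cells induce within minutes of stimulation or handling, 17 of 18 tested had lower values in Balb/c. Their median log2 fold change was -0.45, edgeR called 0, with 4 at an unadjusted p under 0.05, and DESeq2 called 2, *Fos* and *Klf4*. Among all 8904 genes tested, 4344 had lower values and 306 an unadjusted p under 0.05, with a median of 0.02. EdgeR called 0.348% of them and DESeq2 called 105. *Fos* ranged from 1350.2 to 2616 CPM (median 2129) in Balb/c and from 2309 to 7733 CPM (median 4297) in C57Bl/6J, and the groups overlapped (edgeR adjusted p 0.117). *Klf4* was at most 1.29 CPM in Balb/c and between 2.45 and 51.6 CPM in C57Bl/6J (edgeR adjusted p 0.387).

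Metabolic and proliferation lists held no called gene by edgeR or DESeq2. For the mitochondrial respiratory chain 37 of 48 genes tested had lower values in Balb/c, with a median log2 fold change of -0.16 and 1 at an unadjusted p under 0.05. The median was -0.10 over 16 glycolysis genes with 3 at an unadjusted p under 0.05, and 0.12 over 20 lipid and cholesterol genes with 1. It was -0.09 over 23 cell cycle genes and 0.14 over 9 heat shock genes, with 0 at an unadjusted p under 0.05 in either. *Pdk1*, a kinase gene that limits pyruvate oxidation, was at 0.303 to 40.9 CPM in Balb/c and 51.3 to 378 CPM in C57Bl/6J without overlap (edgeR adjusted p 0.876). On a list of 18 loci known from background to differ in DNA between inbred strains, 10 were tested and 2 were called, *Apobec3* and *H2-Q7*, both lower, with 5 at an unadjusted p under 0.05, 2 called by DESeq2 and a median log2 fold change of -0.91. Over all 8904 genes edgeR called 0.348%, 306 had an unadjusted p under 0.05, DESeq2 called 105 and the median was 0.02.

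The same fit asked whether diet changed genes in rest brain Tregs of both strains, and a fit with an interaction term asked whether the strain differences depended on diet. No gene passed either test. For diet, edgeR called 0 of 8904 genes (0%), with 316 at an unadjusted p under 0.05 and 104 called by DESeq2. For the interaction of strain and diet, edgeR called 0 (0%), with 411 at an unadjusted p under 0.05 and 270 called by DESeq2. With 2 Balb/c libraries on SD this interaction rests on few pools. *Ly6e* had an interaction log2 value of 1.22 with an unadjusted p of 0.00107, and its strain groups were apart on both diets.

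Activated Tconv of the rest brain were sorted in the same experiment, and the comparison asked whether strain differences of Tregs differed from those of Tconv. Most genes called in Tregs were also called in Tconv with the same direction, yet several differed in size. *Ly6e* was lower in Balb/c in both cell types and more so in Tregs. *Ifi204* was high in Balb/c Tregs, and its strain difference was smaller in Tconv, where it was not called. *Rps14* was lower in Balb/c Tregs and had a value of the other sign in Tconv, where it was not called either.

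In the 13 Tconv libraries, 6 Balb/c and 7 C57Bl/6J, edgeR called 2730 of 10378 genes by strain (26.3%). The spread was smaller there, with a biological coefficient of variation of 0.717 against 1.41. Of the 31 genes called in Tregs 29 were tested in Tconv and 26 were called, all 26 in the same direction. The interaction of strain and cell type was called for 582 of 11076 genes (5.25%), 200 with a higher and 382 with a lower value in Tregs. That fit shares 1 estimate of spread over both cell types. With the shared pool number as a block, 215 genes were called (49 higher and 166 lower). DESeq2 called 1224, of which 656 had a higher value in Tregs and the rest a lower one, so the balance of directions turned with the tool, and 901 (344 higher, 557 lower) were called without C57Bl/6J SD Treg libraries 2, 3 and 4. Of the 31 genes, which were chosen by their strain effect in the same Treg libraries, 9 were called in the interaction. The difference of the strain effect, Treg minus Tconv, was -1.66 on the log2 scale for *Ly6e* (SE 0.27, edgeR adjusted p 9.4e-04), with -3.50 in Tregs and -1.85 in Tconv. It was 5.32 for *Ifi204* (SE 0.89, edgeR adjusted p 9.4e-04), with 6.503 and 1.17, and -1.60 for *Rps14* (SE 0.27, edgeR adjusted p 9.4e-04), with -1.15 and 0.45. For *H2-K1* it was 0.46 (SE 0.12, edgeR adjusted p 0.0209), with -0.88 and -1.34, so that the difference was smaller in Tregs. *Apobec3* had -3.45 and -3.56 and an interaction adjusted p of 0.963, and *Trim12a* had an interaction adjusted p of 0.748. In Tconv alone *Ifi204* and *Rps14* were not called by strain (edgeR adjusted p 0.0993 and 0.0990).

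The genes named here for a small adjusted p in this interaction were not called by strain in Tregs. *Coro1a*, of the main coronin of leukocytes, had medians of 2473 CPM in Balb/c and 2717 CPM in C57Bl/6J Tregs and an interaction value of 1.46 (SE 0.19, edgeR adjusted p 1.9e-04), with a log2 fold change of -0.10 in Tregs and -1.56 in Tconv. *H2-D1*, a classical class I gene, had medians of 10483 and 8300.2 CPM in Tregs and an interaction value of 0.92 (edgeR adjusted p 2.6e-04), with 0.33 and -0.60. *9930111J21Rik1* and *Rasal3* had interaction values of 4.13 and 2.12. In the other direction *Ppia*, the gene of cyclophilin A, had a value of -1.49 (SE 0.17, edgeR adjusted p 2.1e-05), with -0.32 in Tregs and 1.17 in Tconv. *Taf9*, *Rpl36al* and *Rps27a* had values of -1.96, -1.56 and -1.92, each with a value above 0 in Tconv.

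**Figure D3:**
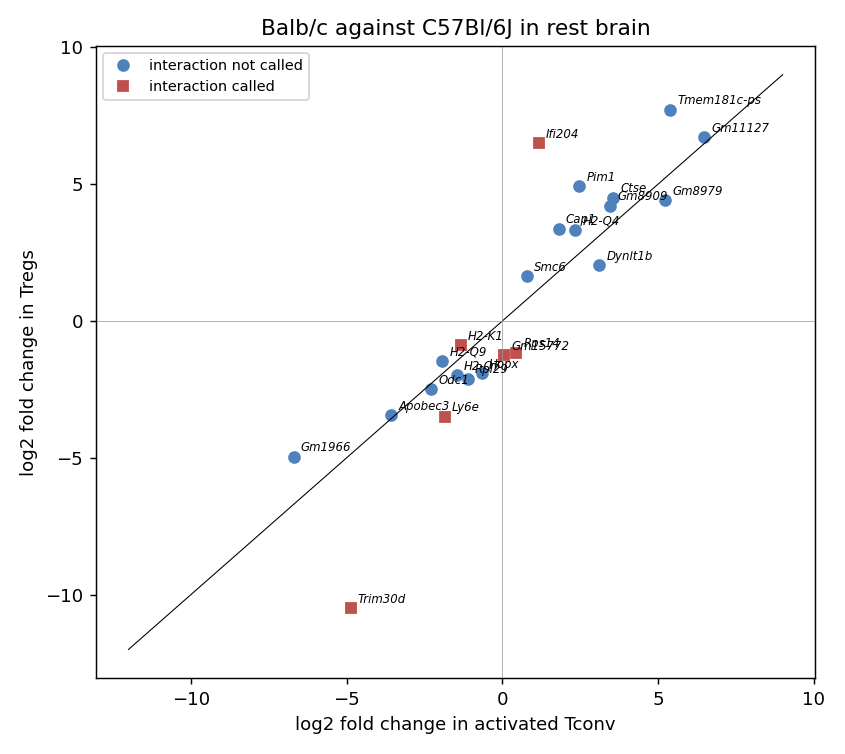
Log2 fold change of Balb/c against C57Bl/6J in activated Tconv (horizontal) and in Tregs (vertical) of the rest brain for 23 called genes tested in both, leaving out genes at 0 in all Treg libraries of 1 strain, with squares for genes called in the interaction. The line marks equal values, and *Rps14* and *Gm15772* are the genes with values of opposite sign.

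Tregs of the hypothalamus were compared to ask whether the strain differences depended on the tissue. The genes called in the rest brain that could be tested there had values of the same sign, but 1 gene in all was called. In 16 hypothalamic Treg libraries, 8 of each strain, edgeR called 1 of 5706 genes (0.0175%), *2410017I17Rik*, with a log2 fold change of 8.41 (SE 1.42, edgeR adjusted p 0.0235), and DESeq2 called 108. The spread was large, with a biological coefficient of variation of 2.40. Of the 31 genes 24 were tested, all 24 with the sign seen in the rest brain, and 14 had an unadjusted p under 0.05, against 91 of all 5706 genes tested. *Ly6e* had a log2 fold change of -3.09 (SE 0.61, edgeR adjusted p 0.0871) and *Gm11127* of 9.02 (SE 2.18, edgeR adjusted p 0.341). For the interaction of strain and tissue edgeR called 0 of 9568 genes (0%), with 787 at an unadjusted p under 0.05 and 847 called by DESeq2.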

How the data were processed

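Tregs and activated Tconv of the rest brain and hypothalamus were sequenced as pools of mice. The authors processed the reads with an nf-core pipeline on mm10 and deposited Salmon's estimated counts per RefSeq transcript name. The deposited TPM values were summed per gene alongside, and no value or test given here rests on them. Per the labels, BWA and HTSeq were also named, with no versions. Names were matched to the GRCm38.p6 RefSeq table or GENCODE (34850 of 35034, 99.5%). Estimated counts were summed over the names of each gene, giving 24461 features, and rounded to whole numbers. Genes on chromosomes X and Y (1106) or without a chromosome (174) were left out, as were genes without more than 10 counts in at least 6 libraries.

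Strain and diet were fitted with edgeR 4.0.16 (glmQLFit and glmQLFTest, TMM) in R 4.3.3, with Benjamini-Hochberg adjustment over all genes tested and a threshold of 0.05. DESeq2 1.42.0 and limma 3.58.1 served as alternatives, with other filters, scalings, covariates and libraries left out, and Python 3.11.15 for the summaries. Interactions were tested as terms of joint fits. CPM were counts divided by the library total of tested genes times its TMM factor. The scripts were tested on simulated data. The floor for a group at 0 was 3 counts per library, and it covers counting error only. Folds against this floor set the mean CPM of the other strain against the mean floor, and single libraries can lie lower.

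Named genes were list members, the 12 largest changes in each direction among called genes with a mean of at least 10 CPM and no overlap between strains, the 5 called genes with the smallest adjusted p in each direction of the strain test and of each interaction, and runs of 3 or more called genes within 500 kb of each other. The members and lists were chosen with earlier results of these data known. A few genes that this rule or the marker lists name are not reported here.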

Additional observations from a re-analysis of the deposited data

Results flagged for a closer look

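For each called gene, on log2(CPM + 1), and for the total counts and the number of genes detected, the library farthest from the rest of its strain group was tested by Dixon's criterion. In 66 groups of values, including those at 0 in every library, 8 single values stood out, all of genes, and chance marks about 1 in 20 groups. Among the Balb/c libraries *Gm15772* was at 245 CPM in SD library 2 and *Gm1966* at 58.9 CPM in HFHS library 4, both high. Among the C57Bl/6J libraries SD library 3 was low for *Apobec3* at 158 CPM, for *Hopx* at 68.2 CPM and for *Apol7e* at 0 CPM. *Dynlt1b* was low in C57Bl/6J HFHS library 4 at 24.9 CPM. *Pim1* was at 0 CPM in C57Bl/6J SD library 4. *Cap1* was at 0.821 CPM in C57Bl/6J SD library 2. Of the 8 values, 5 were in the 3 C57Bl/6J SD libraries with the fewest genes detected.

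The strain effect differed between rest brain Tregs and activated Tconv for 9 of the 31 called genes by the interaction test in edgeR. The share over all 11076 genes was 5.25%, and the 31 genes were chosen by their strain effect in the same Treg libraries. The difference, Tregs minus Tconv on the log2 scale, was -1.66 for *Ly6e* and 0.46 for *H2-K1*. It was -5.61 for *Trim30d* and 5.32 for *Ifi204*. It was -1.60 for *Rps14* and -1.32 for its fellow ribosomal copy *Gm15772*. For genes at 0 in Balb/c Tregs the fitted differences were -6.73 for *Coro2a*, -6.96 for *Gm4956* and -9.88 for *Apol7e*, and these depend on the prior count.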

How the results depend on the processing

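The strain count of 31 genes became 105 with DESeq2, 110 with limma-voom, 1 with SD libraries alone and 19 with the number of genes detected as a term. It was 30 with a filter on total counts, 32 with DESeq2 size factors, 33 without diet, 36 with HFHS diet alone, 37 with filterByExpr, 36 with X, Y and unplaced genes kept and 23 against a fold of 1.5, and 45 without the 3 C57Bl/6J SD libraries, an alternative chosen after seeing the data. Leaving out each library in turn gave 23 to 39 genes, and 21 of the 31 were kept in every such fit. No gene changed sign in any fit run. Of the fits of single genes 648 kept the call and 158 lost it. On the log2 scale DESeq2 size factors moved the median of all genes by 0.000661 and the term for genes detected moved it by -0.0709.

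DESeq2 called 104 genes by diet, 270 for strain by diet and 847 for strain by tissue, where edgeR called 0, and 1224 against 582 for strain by cell type. Without the 3 C57Bl/6J SD libraries the latter was 901. By strain in hypothalamic Tregs DESeq2 called 108 against 1. The cause was not tested.

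Pool numbers are shared between cell types and tissues. Deviations of libraries with the same number correlated with a median of 0.0196 over 12 pools across cell types, 2 of them over 0.1. Across tissues the median was -0.00904 over 10 pools, 0 over 0.1. In a strain and diet group with only 2 such pools the deviations mirror each other, so both pools give the same value. The 2 values over 0.1 were such a pair, Balb/c pools 37_41 and 42_46, both at 0.116. These few dependent values cannot decide whether the numbers mark the same mice, and the pairing was not used in the main fits. With the pool as a block 215 genes were called for strain by cell type (49 higher and 166 lower in Tregs), 211 of them among the 582, and 0 for strain by tissue, where 179 had an unadjusted p under 0.05.

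Strain and sex cannot be told apart here, pools hide the spread between mice, and 2 Balb/c libraries on SD limit the interaction with diet. Counts rest on transcripts of mm10, so values of paralogs and of genes that differ in sequence are uncertain.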
